A study of Rattus norvegicus with 9 samples.

Results

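Collagen genes and the genes whose products modify and crosslink collagen were followed in the lungs of 7 Wistar rats, 3 with metabolic syndrome (MetS) and 4 controls. The rule for membership uses the gene symbol and no measured value: the numbered collagen chains, lysyl oxidase (Lox) and its relatives Loxl1 to Loxl4, the lysyl hydroxylases Plod1 to Plod3, the catalytic subunits of collagen prolyl hydroxylase P4ha1 to P4ha3, and the collagen chaperone Serpinh1. This gave 37 genes, 25 collagen chains and 12 enzyme or chaperone genes, among 14497 genes that a probe with 1 symbol named. They were read by 39 probes of 28826. Col6a4 alone had more than 1 probe, and the one with the highest mean of its 3 was used. The RefSeq table of assembly GRCr8 lists 56 genes under these symbols, of which 19, among them Col4a2, Col6a1, Col15a1 and Col18a1, were not analysed here.

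After weaning, the MetS rats drank a 30% sucrose solution and no other liquid for 24 weeks while the controls drank water, both with free access to the same chow, and lung was collected after a fast of 7 hours. The labels name the MetS rats as male and leave the sex of the controls unstated. Total RNA was read on Affymetrix arrays for rat genes, with 1 log2 expression value per transcript cluster, here called a probe. MetS animal 1 and control animal 1 had 2 arrays each, which were averaged, so n counts animals throughout. In whole lung, a change in the number of cells that make collagen and a change in RNA per cell cannot be told apart.

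Collagens are the triple-helical proteins that give lung tissue its tensile strength. Fibrillar collagens form the fibres of airway walls, vessels and alveolar septa, and collagen IV forms the sheet under epithelium and endothelium across which gas diffuses. Inside the cell, prolyl and lysyl hydroxylases modify the new chains and the chaperone Serpinh1, also called HSP47, holds the folded helix. Outside it, lysyl oxidases oxidise lysine residues so that neighbouring molecules become covalently joined.

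Over the whole array limma called 0% of the probes at an adjusted p under 0.05, and 13.7% had an unadjusted p under 0.05, 3.82% higher and 9.91% lower in MetS. For 11.7% of the probes the groups had no overlap. The SD of an animal's log2 values over all probes ran from 1.88 to 1.93 in MetS and from 1.76 to 1.88 in the controls, with controls 2 and 3 lowest at 1.77 and 1.76. This spread moved with the group, and its part in the results was not tested beyond a fit that holds it as a covariate, given below where it matters. The alveolar type 2 markers, such as the surfactant protein gene Sftpc, had a list mean between 12.53 and 12.64 in every animal, and the alveolar type 1 markers one between 12.46 and 12.63.

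None of the 37 genes passed the test over all probes (limma, smallest adjusted p = 0.344, for P4ha2). At an unadjusted p under 0.05 there were 2 of 37, P4ha2 higher and Col9a1 lower in MetS, beside the 13.7% over the array. Loxl2 was the 1 gene of 37 whose groups did not overlap, beside 11.7%. The log2 difference was above 0 for 22 genes and below 0 for 15, with a median of 0.03 against 0.04 over all named genes. The 95% interval of the difference lay within a 2-fold change in either direction for 36 of the 37 genes, the exception being Col14a1, and within 1.5-fold for 35, the further exception being Lox. These intervals are not adjusted for the number of genes. The count of 2 rested on single animals: it was 0 without MetS animal 1, without control 2 or without control 3, 1 without MetS animal 3 or without control 1, and 4 without control 4.

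**Figure D1:**
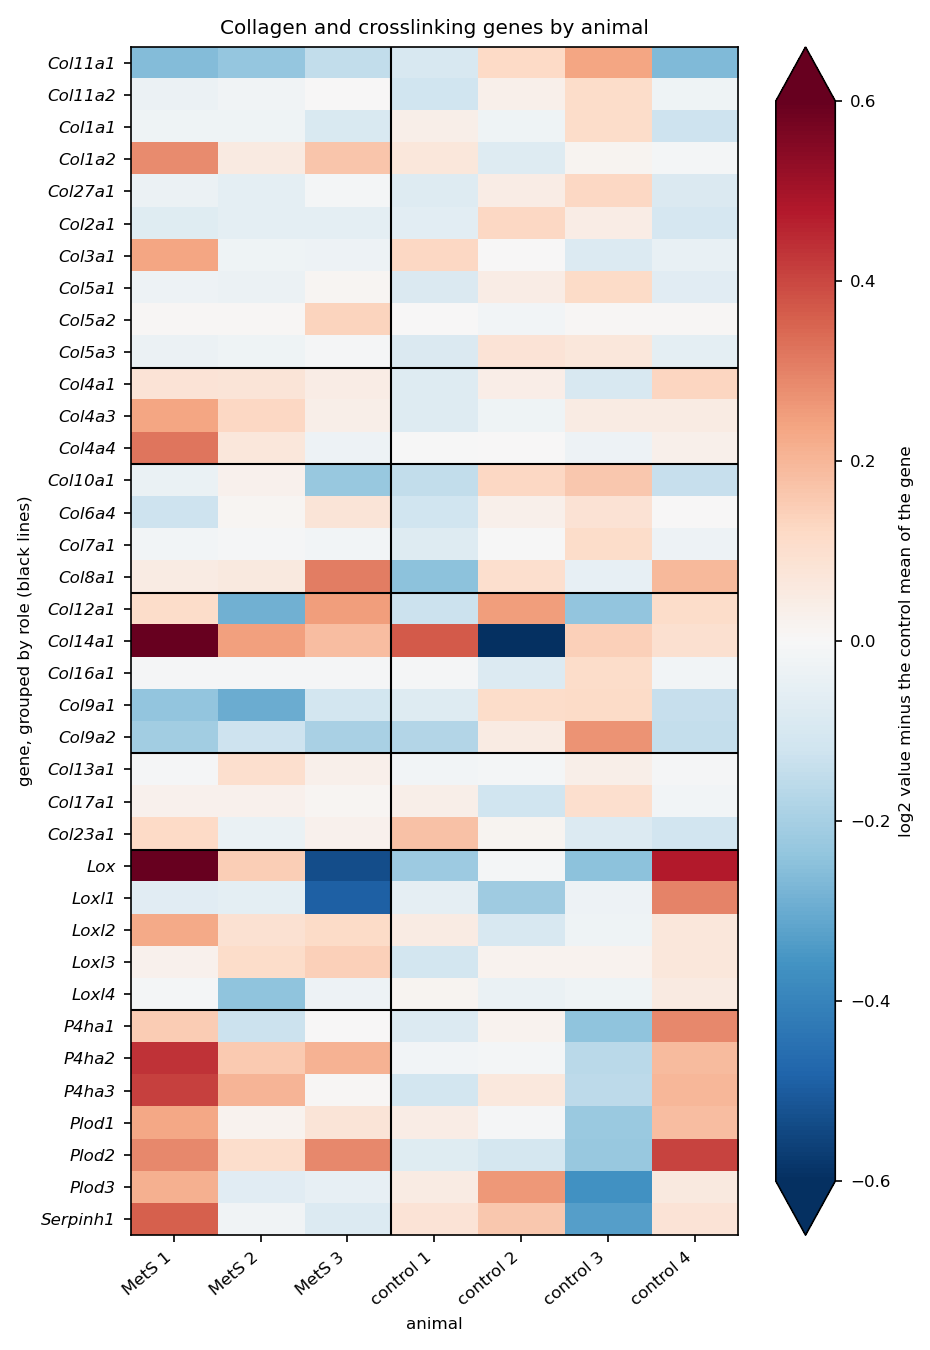
Log2 value of each of the 37 genes in each of the 7 animals, as the difference from the mean of the 4 controls for that gene (colour scale, cut at 0.6 in either direction), with genes in rows grouped by role and animals in columns. The hydroxylase and chaperone rows are lowest in control 3, and Col14a1 and Lox have the strongest colours.

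**Figure D2:**
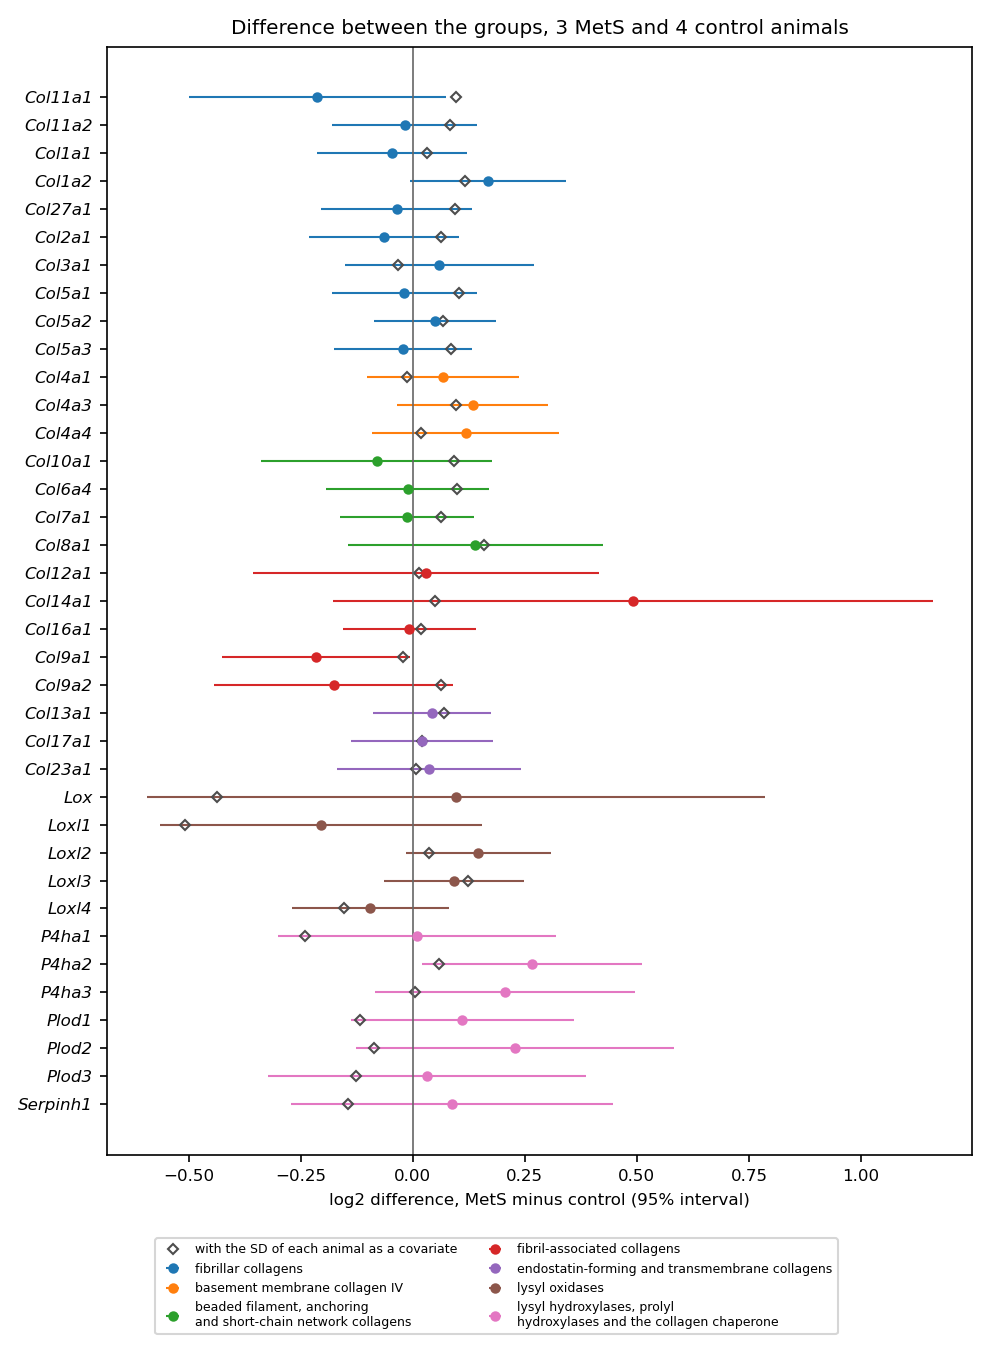
Difference between the groups for each gene, MetS minus control on the log2 scale, with the 95% interval from limma over 3 and 4 animals (filled points and lines, coloured by role) and the difference in the fit that holds the animals' SD over all probes as a covariate (open diamonds). The intervals of P4ha2 and Col9a1 lie on 1 side of 0 and those of the other genes cross it.

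Of the fibrillar collagens 10 were measured, of which 3 stood higher and 7 lower in MetS. Their median difference was -0.02, and none had an unadjusted p under 0.05. With the SD as a covariate the median was 0.08. Type I collagen, the main fibre of lung connective tissue, is built from 2 chains of Col1a1 and 1 of Col1a2. Col1a1 read 8.78, 8.78 and 8.71 in MetS animals 1 to 3 and 8.84, 8.78, 8.91 and 8.68 in controls 1 to 4. The MetS values lay inside the range of the controls, with means of 8.75 ± 0.04 (SD, n = 3) and 8.80 ± 0.10 (SD, n = 4). Col1a2 read 9.17, 8.94 and 9.05 in MetS and 8.95, 8.81, 8.90 and 8.87 in controls. MetS animals 1 and 3 were above every control, while MetS animal 2 was just below control 1. The difference of Col1a2 was 0.17 ± 0.07 (SE), a 1.12-fold difference (limma, adjusted p = 0.372).

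The other chains of the main lung fibres differed by less. Col3a1, the single chain of type III collagen in vessel walls and septa, read 9.25, 8.99 and 8.99 in MetS and 9.14, 9.02, 8.94 and 8.97 in controls, a difference of 0.06 ± 0.09 (SE) whose direction turned to -0.03 without MetS animal 1. MetS animal 1 was the highest of the 7, with control 1 next. Col5a1, Col5a2 and Col5a3, chains of the type V collagen that sets fibril width, had differences of -0.02, 0.05 and -0.02. Col27a1 had one of -0.04.

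The chains best known from cartilage had lower means in MetS by small amounts. Col2a1, the main cartilage fibril chain, had a difference of -0.06, Col11a2 one of -0.02 and Col11a1 one of -0.21. With the SD as a covariate all 3 turned, to 0.06, 0.08 and 0.10, and without controls 2 and 3 Col2a1 and Col11a2 turned to 0.02 and 0.05. Col11a1 read 6.94, 6.97 and 7.05 in MetS and 7.11, 7.32, 7.44 and 6.94 in controls. The MetS values lay between control 4 and control 1, and controls 2 and 3 were the highest of the 7 animals. Both group means of Col11a1 lay below the median over all probes, which was 7.64 to 7.69 in the animals.

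Fibril-associated collagens sit on the surface of fibrils, and 5 were measured, 2 higher and 3 lower in MetS. Col9a1, a chain of the type IX collagen that coats cartilage fibrils, read 7.30, 7.23 and 7.42 in MetS and 7.46, 7.64, 7.65 and 7.39 in controls. MetS animal 3 lay above control 4, so the groups overlapped, and controls 2 and 3 were again the highest. Its difference was -0.22 ± 0.09 (SE), with an unadjusted p of 0.0456 in limma and an adjusted p of 0.359. It was -0.02 with the SD as a covariate and -0.11 without controls 2 and 3. Both group means of Col9a1 lay below the median over all probes. Col9a2, its partner chain, read 7.72, 7.80 and 7.73 in MetS and 7.75, 7.98, 8.20 and 7.78 in controls, a difference of -0.18 ± 0.11 (SE) that was 0.06 with the SD as a covariate.

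Cartilage markers from outside the collagen family are given beside these chains, and none had an adjusted p under 0.05. Of 8 measured, 7 were lower in MetS, and the median difference was -0.11, against 0.05 with the SD as a covariate. Their list mean was 6.59, 6.68 and 6.70 in MetS and 6.72, 6.86, 6.99 and 6.67 in controls, so that controls 2 and 3 were highest here as well. These are dim values, below the median over all probes, which was 7.64 to 7.69 in the animals. The 2 of the 8 markers with an unadjusted p under 0.05, beside 13.7% of all probes, were looked up after their values were seen. Hapln1, which links proteoglycans to hyaluronan in cartilage, had a difference of -0.30 (limma, unadjusted p = 0.0394, adjusted p = 0.349) and Epyc, a small proteoglycan of cartilage, one of -0.47 (unadjusted p = 0.043, adjusted p = 0.356). With the SD as a covariate these differences were 0.0015 and 0.02. Whether the samples held cartilage, and its part in the chain values, was not tested.

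Col14a1 had the widest range of all 37 genes. It codes for type XIV collagen, found on the fibrils of mature connective tissue and made by fibroblasts. It read 9.50, 8.71 and 8.64 in MetS and 8.83, 7.85, 8.60 and 8.55 in controls, a span of 1.65 on the log2 scale. MetS animal 1 was high and control 2 low, and the other 5 animals lay between 8.55 and 8.83. The group difference of 0.49 ± 0.29 (SE) rested on those animals: it was 0.22 without MetS animal 1, 0.29 without control 2, 0.26 without controls 2 and 3, and 0.05 with the SD as a covariate (limma, adjusted p = 0.46 in the fit without it). Mesothelial markers, such as the surface protein gene Msln, also had MetS animal 1 and control 1 as the highest, with a list mean over 4 genes of 10.16 and 9.76 against 9.23 to 9.51 in the other animals. The part of mesothelium in the Col14a1 values was not tested.

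Col12a1, a relative of Col14a1 on tension-bearing fibrils, spanned 0.54 with both groups mixed, from 9.90 in MetS animal 2 to 10.44 in MetS animal 3 and control 2. Col16a1 differed by -0.01.

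**Figure D3:**
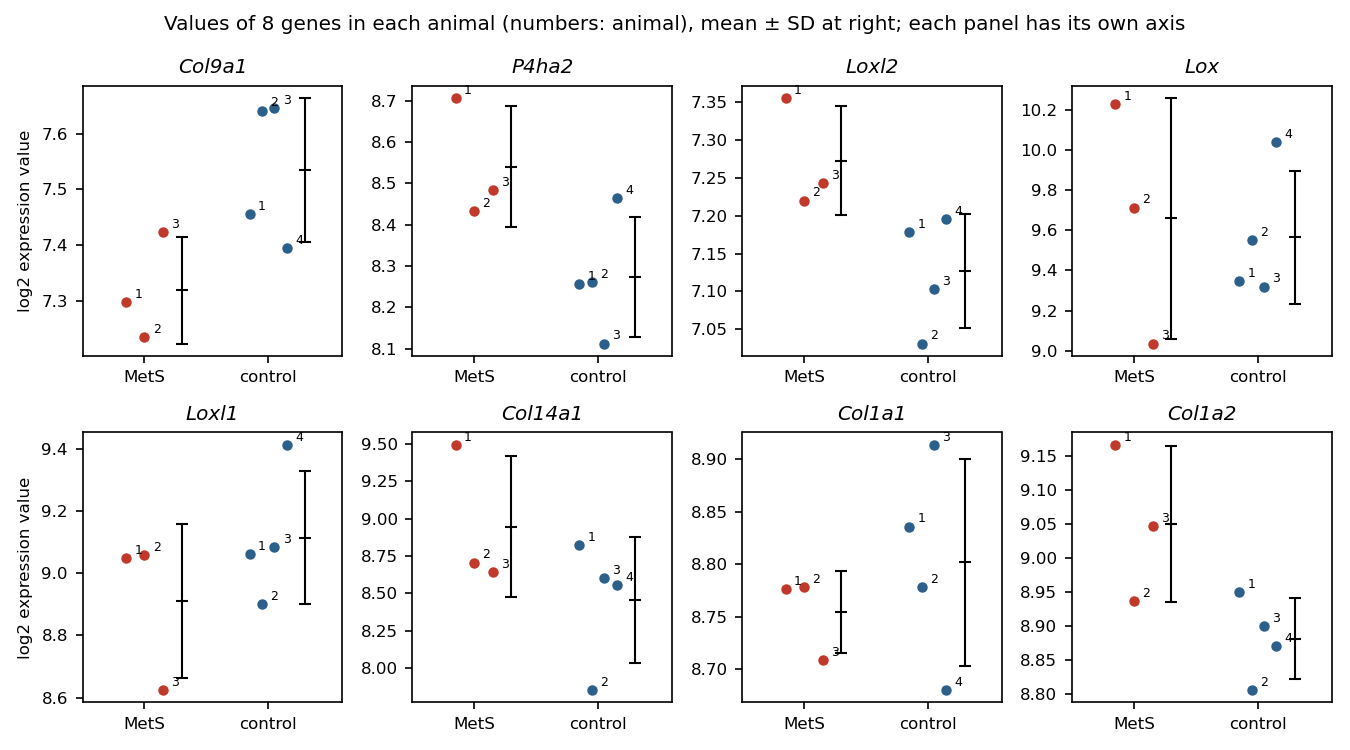
Log2 values of 8 genes in each animal, MetS in red and control in blue with the animal's number beside each point, and the mean ± SD of each group in black; each panel has its own axis. With repeat arrays averaged, the Loxl2 groups do not overlap, while Lox and Loxl1 are lowest in MetS animal 3 and Col14a1 is highest in MetS animal 1.

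Collagen IV of the basement membrane was measured through 3 chains, and all 3 stood higher in MetS by small amounts, though Col4a1 turned to -0.01 with the SD as a covariate. Col4a1, a chain of basement membranes throughout the body, read 8.40, 8.40 and 8.37 in MetS and 8.24, 8.36, 8.23 and 8.45 in controls. Control 4 was above every MetS animal, and the difference was 0.07 ± 0.07 (SE). Col4a3, which with Col4a4 and Col4a5 builds the special collagen IV of the alveolus and the glomerulus, read 9.41, 9.30 and 9.21 in MetS and 9.09, 9.15, 9.22 and 9.22 in controls. MetS animals 1 and 2 were above every control and MetS animal 3 was just below controls 3 and 4. Its difference was 0.13 ± 0.07 (SE), a 1.10-fold difference (limma, adjusted p = 0.435). Col4a4 read 8.97, 8.71 and 8.62 in MetS and 8.65, 8.65, 8.62 and 8.68 in controls, where the 4 controls lay between 8.62 and 8.68 and MetS animal 1 was above all other animals. Its difference was 0.12 ± 0.09 (SE), and 0.02 both without MetS animal 1 and with the SD as a covariate.

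Col4a3 and Col4a4 are transcribed away from each other from 1 region, and they had the highest correlation over the animals of the 6 pairs of partner chains in the deposited values, though not after the values were centred or quantile normalized again, where the type IX and type XI pairs were higher. Their RefSeq starts in GRCr8 lie 413 bases apart on opposite strands. The windows from 250 bases before to 50 after each start share 88 bases, shown in capitals because both genes have that stretch upstream of their start. The windows are chr9:91323740-91324039 on the plus strand for Col4a3 and chr9:91323528-91323827 on the minus strand for Col4a4, each printed 5′ to 3′ on its own strand.
Col4a3: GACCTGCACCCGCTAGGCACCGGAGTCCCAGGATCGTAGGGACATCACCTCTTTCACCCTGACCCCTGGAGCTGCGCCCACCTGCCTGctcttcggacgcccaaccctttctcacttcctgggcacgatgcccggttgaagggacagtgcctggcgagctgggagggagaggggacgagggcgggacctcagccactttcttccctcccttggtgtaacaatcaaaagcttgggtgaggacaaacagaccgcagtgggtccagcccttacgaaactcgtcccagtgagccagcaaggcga
Col4a4: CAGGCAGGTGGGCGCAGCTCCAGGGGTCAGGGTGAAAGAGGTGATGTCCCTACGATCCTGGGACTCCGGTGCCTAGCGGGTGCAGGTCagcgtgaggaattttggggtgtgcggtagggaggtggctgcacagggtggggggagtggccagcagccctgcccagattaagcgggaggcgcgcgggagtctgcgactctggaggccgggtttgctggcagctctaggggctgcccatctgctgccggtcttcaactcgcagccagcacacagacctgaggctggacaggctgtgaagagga
Col4a1 lies in the same arrangement beside Col4a2, with starts 77 bases apart.

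Correlations were computed for the 6 pairs of measured chains that build 1 molecule or 1 fibril, over all 7 animals. Col4a3 and Col4a4 correlated with a Pearson r of 0.83 (p = 0.0254 by exact permutation, adjusted over the 6 pairs to p = 0.121) and a Spearman rho of 0.67 (exact permutation p = 0.117, adjusted p = 0.471). Without MetS animal 1 and control 1, the animals farthest from the Col4a3 median, r was 0.59, and for the deviations from the group means it was 0.77. Col9a1 and Col9a2 had an r of 0.78 (exact permutation p = 0.0405, adjusted p = 0.121) and a rho of 0.54 (exact permutation p = 0.236, adjusted p = 0.471), but without controls 2 and 3 r was -0.35. Col11a1 and Col11a2 had an r of 0.68 (exact permutation p = 0.0919, adjusted p = 0.184) and a rho of 0.61 (exact permutation p = 0.167, adjusted p = 0.471), and without controls 2 and 3 r was -0.58. Over all 7 animals the type IX and type XI relations rested on controls 2 and 3. For the deviations from the group means r was 0.68 for type IX and 0.75 for type XI. After centring each animal on its median it was 0.87 for both, against 0.78 for Col4a3 and Col4a4, and after quantile normalizing again it was 0.75, 0.73 and 0.68.

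The chains of type I collagen had no clear relation over these animals. Col1a1 and Col1a2 had an r of -0.11 (exact permutation p = 0.818, adjusted p = 0.948) and a rho of -0.13 (exact permutation p = 0.798, adjusted p = 0.96), and r was -0.27 without controls 3 and 4. Quantile normalizing the values again turned r to 0.07. Col1a1 and Col3a1 had an r of 0.03 (exact permutation p = 0.948, adjusted p = 0.948) and a rho of 0.02 (exact permutation p = 0.986, adjusted p = 0.986), and r was 0.46 without controls 3 and 4. Col5a1 and Col5a2 had an r of 0.07 (exact permutation p = 0.929, adjusted p = 0.948) and a rho of 0.12 (exact permutation p = 0.8, adjusted p = 0.96), and r was 0.79 without controls 2 and 3 and 0.66 after quantile normalizing again. The r of 0.79 rested on MetS animal 3, at 8.615 for Col5a2, where the other animals kept lay between 8.485 and 8.489. For the deviations from the group means r was 0.22, 0.13 and 0.17 for these pairs, in the order given. After centring each animal on its median it was 0.04, 0.215 and 0.75. Col1a1 had 1 identical value on 4 of the 9 arrays. With 7 animals, these values do not show that any pair is unrelated.

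The collagens of beaded filaments, anchoring fibrils and short-chain networks and the transmembrane collagens had differences close to 0. Col8a1, a network collagen of vessel walls, read 7.57, 7.58 and 7.83 in MetS and 7.28, 7.62, 7.47 and 7.72 in controls, a difference of 0.14 ± 0.12 (SE) with both groups mixed. Col10a1 differed by -0.08, Col7a1, the anchoring fibril chain of epithelial basement membranes, by -0.01, and Col6a4 by -0.01. The other probes of Col6a4 gave -0.08 and 0.03. The transmembrane collagens Col13a1, Col17a1 and Col23a1 had differences of 0.04, 0.02 and 0.04.

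Of the 5 lysyl oxidases, Lox varied most between animals, with a within-group SD of 0.46, while Loxl2, Loxl3 and Loxl4 had SDs of 0.07 to 0.09. Lox, the founding member of the family, read 10.23, 9.71 and 9.03 in MetS and 9.35, 9.55, 9.32 and 10.04 in controls. The highest and the lowest of the 7 animals were both MetS animals, 1.20 apart on the log2 scale, and control 4 was next to the highest. The difference of 0.10 ± 0.29 (SE) was smaller than the SD of either group, 0.60 in MetS and 0.33 in controls. It was -0.19 without MetS animal 1, -0.03 without controls 2 and 3 and -0.44 with the SD as a covariate.

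Loxl1, which joins elastin as well as collagen, read 9.05, 9.06 and 8.62 in MetS and 9.06, 8.90, 9.08 and 9.41 in controls. MetS animal 3 was the lowest and control 4 the highest for this gene. The difference was -0.20 ± 0.15 (SE), -0.06 without MetS animal 3, -0.11 without control 4, -0.33 without controls 2 and 3, and -0.51 with the SD as a covariate, where its unadjusted p was 0.0192 in limma and 0 probes had an adjusted p under 0.05.

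Loxl2, which acts on collagen IV of basement membranes among other substrates, read 7.36, 7.22 and 7.24 in MetS and 7.18, 7.03, 7.10 and 7.20 in controls. All 3 MetS animals were above all 4 controls, but MetS animal 2 was just above control 4. On single arrays the groups touched: 1 of the 2 arrays of control 1 read 7.22, the value of MetS animal 2. The difference of 0.15 ± 0.07 (SE), a 1.11-fold difference, did not pass (limma, adjusted p = 0.393), and the SD between 2 arrays of 1 animal was 0.08 for this gene. It was 0.04 with the animals' SD over all probes as a covariate. Both group means of Loxl2 lay below the median over all probes. Loxl3 had a difference of 0.09 and Loxl4 one of -0.10, with overlapping groups.

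The hydroxylases and the chaperone were all higher in MetS by their means, 7 of 7, with differences from 0.01 to 0.27 and a median of 0.11. With the SD as a covariate that median was -0.12, without controls 2 and 3 it was 0.00, and with the values quantile normalized again it was 0.05, with P4ha1 and Plod3 then lower in MetS at -0.05 and -0.03. P4ha2, a catalytic subunit of prolyl hydroxylase, read 8.71, 8.43 and 8.48 in MetS and 8.26, 8.26, 8.11 and 8.46 in controls. Control 4 lay between MetS animals 2 and 3, and the other controls were below all MetS animals. Its difference of 0.27 ± 0.10 (SE), a 1.20-fold difference, had an unadjusted p of 0.0369 and an adjusted p of 0.344 in limma. It was 0.06 with the SD as a covariate and 0.18 without controls 2 and 3. P4ha3 had a difference of 0.21 ± 0.12 (SE), and P4ha1, the subunit most tissues rely on, one of 0.01 ± 0.13 (SE). P4ha1 read 10.47, 10.19 and 10.32 in MetS and 10.24, 10.34, 10.08 and 10.61 in controls, fully mixed.

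Plod2, the lysyl hydroxylase of the collagen telopeptides, which favours stable crosslinks, read 8.57, 8.39 and 8.57 in MetS and 8.21, 8.18, 8.06 and 8.69 in controls. All MetS animals were above controls 1 to 3, and control 4 was above all of them. The difference was 0.23 ± 0.15 (SE), a 1.17-fold difference (limma, adjusted p = 0.505), and -0.09 with the SD as a covariate. The SD between 2 arrays of 1 animal was 0.20 for Plod2, close to its SD of 0.23 between animals. Plod1 had a difference of 0.11 and Plod3 one of 0.03. Serpinh1 read 10.86, 10.48 and 10.42 in MetS and 10.58, 10.66, 10.17 and 10.58 in controls. MetS animal 1 was the highest and control 3 the lowest, and the difference was 0.09 ± 0.15 (SE). It turned to -0.05 without MetS animal 1, -0.02 without control 3 and -0.15 with the SD as a covariate.

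The 7 hydroxylase and chaperone genes shared much of their order over the animals. Control 3 was the lowest of the 7 animals for 7 of the 7 genes, where it was the lowest for 26.5% of all named genes. MetS animal 1 was the highest for 4 of them, control 4 for 2 and control 2 for 1. Their median deviation from the control mean was 0.29, 0.02 and 0.01 in MetS animals 1 to 3 and -0.02, 0.02, -0.23 and 0.19 in controls 1 to 4, so that MetS animal 1 and control 4 were high together. The collagen chains had another order: controls 2 and 3 were both above the other 5 animals for 10 of 25 chains, against 18.2% of all named genes, and for 0 of the 12 enzyme and chaperone genes. Those 10 chains had control means from 7.172 for Col10a1 to 8.025 for Col2a1, and no chain above that range had this order. Col6a4, Col8a1, Col13a1, Col16a1 and Col17a1 lay within the range without it. The control list mean of the enzyme and chaperone genes was 8.72. The 7 hydroxylase and chaperone genes had control means from 8.23 for P4ha3 to 10.5 for Serpinh1. Control 3 had the lowest SD over all probes, 1.76. Neither the 26.5% nor the 18.2% was matched for signal level, whose part was not tested. These orders were noticed in the values and are a description of 7 animals, with no test.

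**Figure D4:**
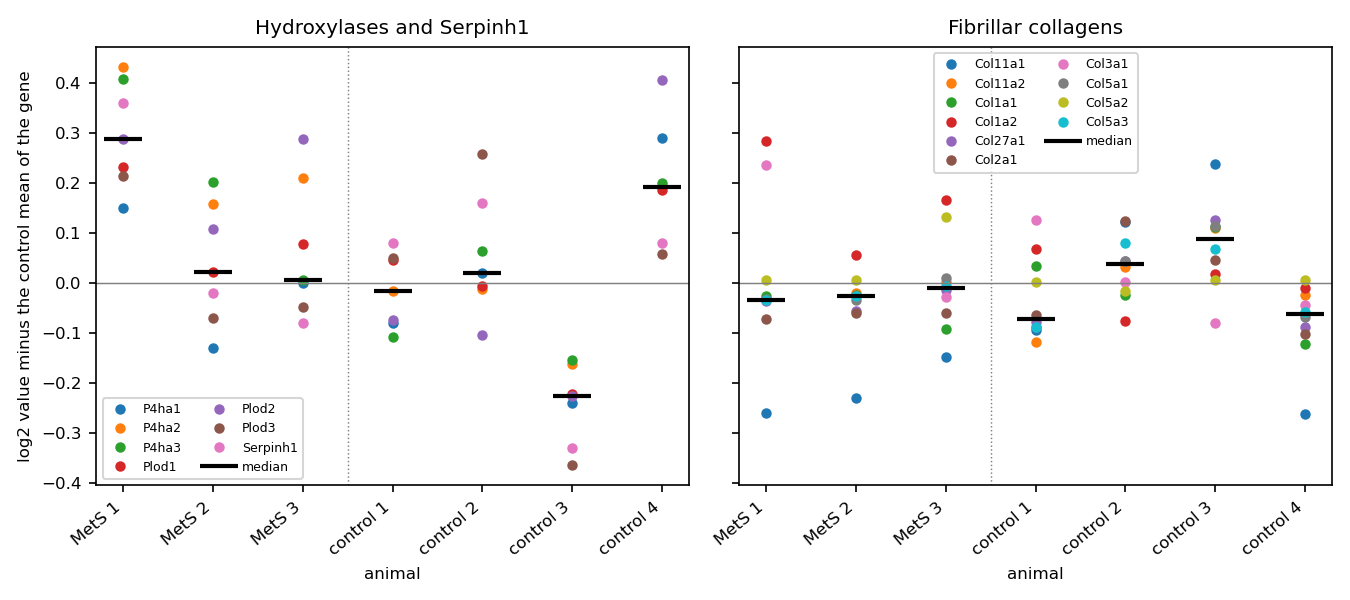
Deviation of each gene from its control mean on the log2 scale, by animal, for the 7 hydroxylase and chaperone genes (left) and the 10 fibrillar collagens (right), with the median of the genes as a black bar. The left panel is lowest in control 3 at a median of -0.23, where the right panel has its highest median, 0.09.

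The start regions of P4ha1, P4ha2, Plod2 and Serpinh1 are shown because textbook regulators of these genes have a known core sequence. The forms searched were ACGTG for the hypoxia-inducible factors and GAANNTTC for the heat shock factors. Other forms of these cores were not counted. Windows from RefSeq in GRCr8 were matched for 30 of the 37 genes, and both strands were searched. ACGTG stood in 3 of the 30 windows, those of P4ha1, P4ha2 and Plod2, and in 19.2% of all 33469 windows. GAANNTTC, which reads the same on both strands, stood in those of Plod1, Plod2 and Serpinh1 and in 8.59% of all. Both motifs are in capitals below, ACGTG as CACGT where it lies on the other strand. The windows are chr20:27844796-27845095 on the plus strand for P4ha1, chr10:38743644-38743943 on the plus strand for P4ha2, chr8:101964068-101964367 on the plus strand for Plod2 and chr1:163062927-163063226 on the minus strand for Serpinh1.
P4ha1: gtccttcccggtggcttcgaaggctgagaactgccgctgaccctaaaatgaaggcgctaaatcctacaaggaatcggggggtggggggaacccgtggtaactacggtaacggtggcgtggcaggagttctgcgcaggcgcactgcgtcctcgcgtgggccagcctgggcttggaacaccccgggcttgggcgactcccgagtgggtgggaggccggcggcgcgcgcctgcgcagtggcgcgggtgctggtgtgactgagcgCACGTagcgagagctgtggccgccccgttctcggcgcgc
P4ha2: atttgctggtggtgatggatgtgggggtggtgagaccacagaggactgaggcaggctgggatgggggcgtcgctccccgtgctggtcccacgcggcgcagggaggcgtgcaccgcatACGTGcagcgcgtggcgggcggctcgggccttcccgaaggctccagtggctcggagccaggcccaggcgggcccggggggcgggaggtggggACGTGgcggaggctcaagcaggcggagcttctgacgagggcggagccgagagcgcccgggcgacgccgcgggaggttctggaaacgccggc
Plod2: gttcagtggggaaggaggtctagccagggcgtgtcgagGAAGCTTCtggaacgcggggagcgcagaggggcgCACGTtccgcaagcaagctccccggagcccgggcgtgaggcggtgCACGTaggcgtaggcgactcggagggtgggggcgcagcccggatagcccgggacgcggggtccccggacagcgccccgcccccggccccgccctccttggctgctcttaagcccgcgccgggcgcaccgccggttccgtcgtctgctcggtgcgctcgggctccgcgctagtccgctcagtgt
Serpinh1: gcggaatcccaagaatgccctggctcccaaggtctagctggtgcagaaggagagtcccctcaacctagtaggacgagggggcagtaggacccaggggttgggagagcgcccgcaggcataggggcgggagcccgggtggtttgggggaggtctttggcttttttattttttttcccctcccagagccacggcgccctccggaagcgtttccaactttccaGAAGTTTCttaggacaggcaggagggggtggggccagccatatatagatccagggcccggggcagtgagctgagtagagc
The 3 genes with ACGTG had differences of 0.01, 0.27 and 0.23, in the order P4ha1, P4ha2, Plod2. All 3 were lowest in control 3, as were the other hydroxylases without these letters. Of other short motifs, the GC box GGGCGG stood in 19 of the 30 windows against 33.1% of all, CCAAT in 8 against 37.5% and the TATA box TATAAA in 4 against 14.2%. In the 4 windows shown, no ACGTG or GAANNTTC match overlaps with a GC box match.

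The arrays repeated on 1 animal showed how far a value can be read. The SD between such arrays had a median of 0.05 over the 37 genes, against 0.11 between animals within groups, and the SD between animals was the larger for 31 of the 37. Over all named genes the medians were 0.05 and 0.12. Lox and Col14a1, the genes with the largest spread between animals at 0.46 and 0.44, had array SDs of 0.13 and 0.05. Col10a1 was the opposite case, with 0.33 between arrays of 1 animal and 0.15 between animals, and its group difference of -0.08 was smaller than the SD between repeat arrays. That 0.33 came from control 1 alone, whose arrays lay 0.65 apart, while both arrays of MetS animal 1 read 7.131.

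Some collagen values were exactly identical on several arrays. An identical deposited value on at least 2 of the 9 arrays was found for 22 of the 37 genes and for 40.9% of all probes. Col16a1 and Col5a2 each had 1 value, 7.57 and 8.49, on 6 of the 9 arrays, and Col1a1 and Col13a1 had 1 value on 4. Their SDs between animals, such as 0.05 for Col5a2, contain these ties, and the step that produced the ties is not known here.

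**Figure D5:**
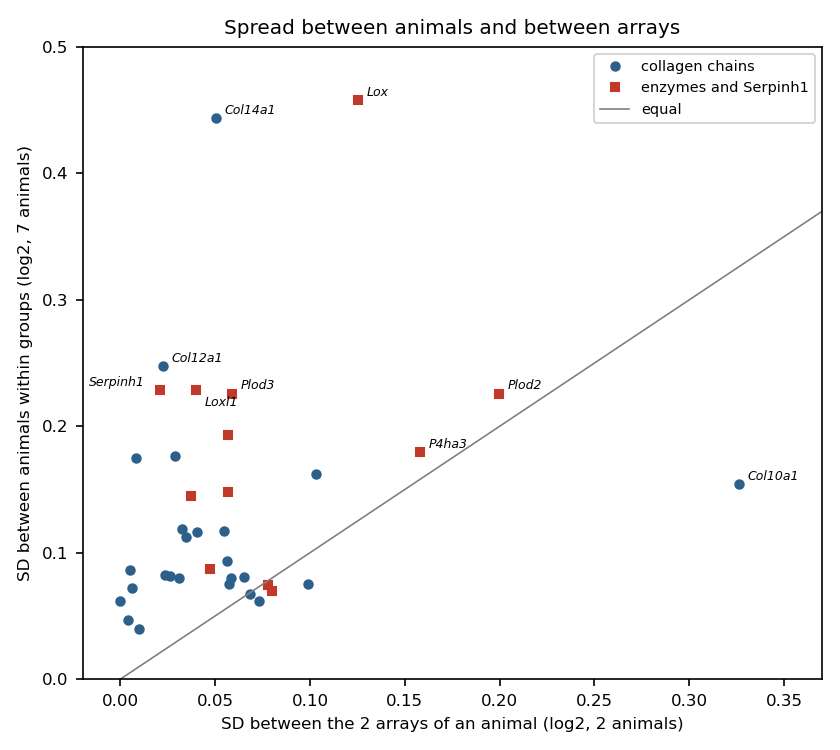
SD between the 2 arrays of an animal (horizontal, from 2 animals) against the SD between animals within groups (vertical, from 7 animals) for the 37 genes on the log2 scale, with collagen chains as circles and the enzyme and chaperone genes as squares. Points above the line vary more between animals than between arrays, 31 of the 37, and Col10a1 lies furthest below it.

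Genes that work with collagen outside the 37 were followed in 6 lists, and none of their measured genes had an adjusted p under 0.05 over all probes (limma). Of 20 genes of collagen folding, secretion and processing, 16 stood higher in MetS, where 8995 of all 14497 named genes did. Their median was 0.10, and 0.02 with the SD as a covariate. At an unadjusted p under 0.05 there were 2, a smaller share than the 13.7% of all probes. Tmem38b, an ion channel of the endoplasmic reticulum needed for collagen modification, stood at 9.07 ± 0.19 (SD, n = 3) against 8.69 ± 0.15 (SD, n = 4), with an adjusted p of 0.324 in limma. Crtap, a partner of prolyl 3-hydroxylase, read 9.71, 9.55 and 9.58 in MetS and 9.49, 8.96, 9.08 and 9.43 in controls, without overlap (adjusted p = 0.34). It was the 1 of the 20 without overlap, beside 11.7% of all probes. Its difference of 0.37 was 0.04 with the SD as a covariate.

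Proteoglycans and glycoproteins that bind fibrils had 10 of 14 higher with a median of 0.12, elastic fibre genes 9 of 16 with 0.08, and laminins and other basement membrane partners 7 of 9 with 0.07. With the SD as a covariate these medians were 0.08, 0.03 and -0.0045. None of these 3 lists had a gene at an unadjusted p under 0.05. Of 9 collagen receptors, 5 stood higher and 4 lower. Lair1, an inhibitory collagen receptor of leukocytes, read 6.54, 6.63 and 6.68 in MetS and 7.13, 7.53, 7.38 and 6.89 in controls, without overlap, a difference of -0.61 ± 0.15 (SE) with an adjusted p of 0.324 in limma. Lair1 was the 1 of the 9 at an unadjusted p under 0.05 and the 1 without overlap, beside 13.7% and 11.7% of all probes. Its difference was -0.24 with the SD as a covariate. Lair1 was dim, with both means below the median over all probes, 7.64 to 7.69 in the animals, and controls 2 and 3 were its highest.

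Among 16 measured genes of TGF-beta signalling and other profibrotic regulators, 12 stood higher and 4 lower, with a median of 0.07 that turned to -0.07 with the SD as a covariate and was 0.0019 without controls 2 and 3 and 0.01 after quantile normalizing again. The 2 with an unadjusted p under 0.05, again a smaller share than 13.7%, were both lower: the cytokine gene Il6 at 5.12 ± 0.02 against 5.45 ± 0.21 (limma, adjusted p = 0.324) and Ccn1, a matricellular protein gene, at 10.21 ± 0.43 against 10.74 ± 0.22 (adjusted p = 0.343). The Il6 difference of -0.34 was -0.08 both with the SD as a covariate and after quantile normalizing again. Il6 was dim, with both means below the median over all probes, 7.64 to 7.69 in the animals. For the cells that make most lung collagen, the list mean of 6 measured fibroblast markers lay between 9.05 and 9.45 in MetS and between 9.03 and 9.39 in controls, and that of 8 smooth muscle markers between 8.66 and 9.07 and between 8.39 and 8.74. The fibroblast markers did not share a direction. Of the 6 measured, 2 had an unadjusted p under 0.05, beside 13.7% of all probes, and were looked up after their values were seen. The transcription factor gene Tcf21 was at 9.60 ± 0.03 against 9.34 ± 0.02 (limma, adjusted p = 0.324). It was the 1 of the 6 without overlap, beside 11.7% of all probes. The methyltransferase gene Inmt was at 10.01 ± 0.12 against 10.29 ± 0.20 (limma, adjusted p = 0.362). The Tcf21 difference of 0.27 was 0.26 with the SD as a covariate. The SD between 2 arrays of 1 animal was 0.08 for Tcf21, larger than its SD of 0.03 between animals within groups. Its 2 arrays of control 1 lay 0.165 apart. Of the 8 smooth muscle markers 7 stood higher in MetS, with a median difference of 0.26, or 0.07 with the SD as a covariate, and none had an unadjusted p under 0.05. Their list mean was highest in MetS animal 2, at 9.07. MetS animals 1 and 3, both at 8.66, lay below controls 1 and 4 and above controls 2 and 3. The part of these cells in the collagen values was not tested.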

How the data were processed

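The deposited table holds log2 expression values per probe for 9 arrays. The submitters' processing notes list RMA, limma and R 2.11.0 with no role or order. No build is named in the sources used here. Per the labels' protocols, Trizol RNA with an integrity number of at least 6 was used, 50 ng per labelling. Nothing says at which step the repeat arrays were split.

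Arrays of 1 animal were averaged. All 28826 probes were fitted together as MetS minus control with lmFit and eBayes (limma 3.58.1, R 4.3.3; 7.28 total degrees of freedom, 5 of them from animals), with p-values adjusted by Benjamini-Hochberg across the 28826 probes at a threshold of 0.05; the script was tested on simulated data. Exact permutation tests were two-sided over 5040 orderings (scipy 1.17.1, numpy 2.4.6). Of the probes 15209 have 1 symbol in the platform annotation, updated through RefSeq (GRCr8) for 15178 of them, 306 several and 13311 none. The alternative with the animals' SD as a covariate holds a term that moves with the group.

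Members, gene lists and tests were chosen with earlier results of these data known. Values in every animal are given for genes at an unadjusted p under 0.05 or without overlap, for the measured genes of a list by name (Col1a1, Col1a2, Col3a1, Col4a1, Col4a2, Col4a3, Col6a1, Lox, Loxl1, Loxl2, Plod2, P4ha1 and Serpinh1), and, chosen after their values were seen, for Col11a1, Col9a2, Col14a1, Col4a4 and Col8a1, beside up to 3 genes per pathway list with the smallest p. Alternatives and those left out are in the closing section.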

Additional observations from a re-analysis of the deposited data

Results flagged for a closer look

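Among the 37 genes and the 5 genes named from the pathway lists, 1 control group of 4 held an animal far from the others. For Serpinh1, control 3 at 10.17 was apart from the next control by 0.8292 of the whole range of the controls, barely past Dixon's 95% critical value for 4 samples. About 1 group in 20 is picked out this way by chance. Groups of 3 were not examined.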

How the results depend on the processing

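Besides the fit reported, 18 alternatives were run where they apply. Of 18 collagen and crosslinking genes given with values in every animal, 9 kept the sign of their difference in all of them, and 0 of the 18 had an adjusted p under 0.05 in any, the lowest being 0.0733 for Plod2. The median difference of the 37 genes, 0.03, ran from -0.0097 without MetS animal 1 to 0.068 without MetS animal 2, each less than the SD of the control medians, 0.044, from the value reported. The probes at an unadjusted p under 0.05, 1102 higher and 2857 lower in MetS, became 483 and 540 with the animals' SD over all probes as a covariate, 413 and 1097 without controls 2 and 3, and 661 and 1435 among probes with 1 symbol. The higher ones became 2316 after quantile normalizing again, and the lower ones 1131 among probes above the 25th percentile of means. Leaving out 1 animal at a time gave 524 to 2016 higher and 1354 to 4164 lower. The 2 of the 37 genes at that limit became 1 with the SD as a covariate, 0 without controls 2 and 3, 1 with the first array of each animal, and 0 to 4 with 1 animal left out.

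The SD as a covariate turned Col11a1 to 0.097, Col9a2 to 0.064, Col1a1 to 0.031, Col3a1 to -0.033, Col4a1 to -0.013, Lox to -0.44, P4ha1 to -0.24, Plod2 to -0.087 and Serpinh1 to -0.15. Leaving out controls 2 and 3 turned Lox to -0.033 and P4ha1 to -0.099, quantile normalizing again turned Col3a1 to -0.010 and P4ha1 to -0.049, and array weights turned P4ha1 to -0.027. With 1 animal left out, Col3a1 ran from -0.028 to 0.10, Lox from -0.19 to 0.41, P4ha1 from -0.071 to 0.11 and Serpinh1 from -0.050 to 0.17. The r of Col1a1 with Col1a2 became 0.041 after centring each animal on its median and 0.069 after quantile normalizing again, and r without the 2 farthest animals became -0.58 for the type XI and -0.35 for the type IX pair. The cause was not tested in any of these cases.

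Animals 1 to 3 carry the same numbers in both groups, and their deviations correlated at 0.27, -0.12 and 0.34. Without values for animals of unlike numbers, these cannot decide whether the numbers pair animals. The fit reported does not pair them. With the replicate block, 2017 probes had an adjusted p under 0.05, against 0 without it, with 2204 higher and 4543 lower at an unadjusted p under 0.05 and 6 of the 37 genes. Control 4 has no partner of its number, so this fit also drops it from the differences. Leaving out control 4 alone gave 2016 higher, 4164 lower and 4 of the 37 genes, with 0 probes at an adjusted p under 0.05.

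With 3 and 4 animals, the small number of arrays limits the precision. No array signal over background was at hand, so dim probes were screened by their mean alone.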

Other observations

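Cardiomyocyte markers, which in rat lung come with the muscle sleeve of the pulmonary veins, had a list mean of 8.65 in MetS animal 1 and 9.67 in control 1 against 6.97 to 7.36 in the other 5 animals, over 7 measured genes. These are the 2 animals with repeat arrays and the 2 with the highest Col14a1 values. Myh6, Actc1, Tnnt2, Tnni3 and Ryr2 were highest in control 1 and next in MetS animal 1, but Myl7 and Nppa did not have this order. Myl7 was lowest in MetS animal 1 at 7.38 and highest in MetS animal 2 at 8.23. Nppa read 6.76 in both MetS animal 1 and control 1. The part of cardiomyocytes in the Col14a1 values was not tested.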
